A study of Mus musculus with 12 samples.

Results

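Atf4, Ddit3, Trib3, Chac1, Asns, Psat1, Phgdh, Hspa5 and Pdia4 are 9 mouse genes by which a cell's response to scarce amino acids or to unfolded protein in the endoplasmic reticulum (ER) is commonly read. They were chosen by name from the 26218 genes of the deposited table, and all 9 had values. In the integrated stress response, kinases that sense scarce amino acids, ER stress or other strains phosphorylate the translation factor eIF2, which lowers protein synthesis as a whole and raises translation of the transcription factor ATF4. ATF4 then drives genes of amino acid synthesis and uptake (Asns, Psat1, Phgdh) and genes that act in prolonged stress (Ddit3, Trib3, Chac1). The unfolded protein response of the ER, through ATF6, IRE1 and PERK, raises chaperones and folding enzymes such as Hspa5 and Pdia4.

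The 12 libraries of 3′-end RNA sequencing fall into 6 groups of 2. Primordial germ cell-like cells (PGCLCs) were induced from embryonic stem cells for 4 days, sorted, expanded on m220 stromal feeder cells and sorted again after 3, 5 or 7 days of culture (groups d4c3, d4c5 and d4c7). Their strain was C57BL/6 with 2 reporters, Blimp1-mVenus and Stella-ECFP, sorting was by the Blimp1-mVenus signal, and 10 ng of RNA was amplified. The embryonic groups are germ cells of embryonic day (E) 9.5, not split by sex, and of E12.5 males and E12.5 females. Their strain is given as ICR and C57BL/6 at 1:1 with a Stella-EGFP reporter, sorting was by that reporter, and 1 ng of RNA was amplified. Culture and embryo therefore cannot be told apart from strain, reporter, sort and RNA input. The labels do not say whether the replicates were separate cultures or embryos, so the p-values speak to the spread among these libraries alone, which may be technical. Since the samples are bulk, fewer cells of a type and less RNA per cell cannot be told apart.

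Values are RPM, reads scaled to the total of reads in genes. Depth, estimated from the step between low values, was 2219175 to 5817990 reads in genes. The limit that a count of 0 sets is 3 reads, or 0.517 to 1.36 RPM by depth, for counting error only. All 11 germ cell markers were at or above 5 RPM in every library, and 11 gonadal somatic markers summed to at most 28.4 RPM. The 14 blood and vessel markers summed to 4153 and 4680 RPM at E9.5 and to 48.7 to 169 RPM in the other libraries. At E9.5, 8 of the 14 were at or above 5 RPM in both libraries and only Cdh5 was at 0 in both. The 11 fibroblast and feeder markers summed to 681.8 and 713.1 RPM at E9.5, with 6 at or above 5 RPM and 0 at 0 in both libraries, against 208.1 to 503.9 RPM and 2 such markers in each other group. Of 8 hindgut and endoderm markers, 3 were at or above 5 RPM at E9.5 and 1 in each other group, with sums of 156.2 and 181.2 RPM at E9.5 within the range of the rest (121 to 234 RPM). Spike-in RNAs summed to 628.5 and 1372 RPM at E9.5 and to 12110 to 16490 RPM at E12.5. The part of these markers' cells and of the spike-in difference in any comparison with E9.5 was not tested.

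Promoter stretches are shown for the 3 genes whose window holds the C/EBP-ATF core (Asns, Chac1 and Trib3). Also shown are Hspa5, which holds an exact match to the ER stress element, and, for comparison, Pdia4, which holds no exact match. Windows from 250 bases before to 50 bases after the RefSeq start site (build GRCm38.p6, equivalent to mm10) were found for all 9 genes, 10 in all with a second window for Psat1, which holds none of the motifs below. The core of the C/EBP-ATF response element, to which ATF4 binds, was searched as TGATGNAA on both strands. The ER stress element was searched as CCAAT and CCACG with 9 bases between them. Capitals mark the C/EBP-ATF core in Asns (chr6:7693210-7693319, minus strand) and, on the opposite strand, in Chac1 (chr2:119350992-119351112, plus strand) and Trib3 (chr2:152344026-152344055, minus strand, 30 bases that begin 6 bases into the transcript). They mark CCAAT boxes on either strand and the CCACG of the ER stress element in Hspa5 (chr2:34771960-34772089, plus strand), and CCAAT boxes on either strand in Pdia4 (chr6:47813513-47813642, minus strand).
Asns: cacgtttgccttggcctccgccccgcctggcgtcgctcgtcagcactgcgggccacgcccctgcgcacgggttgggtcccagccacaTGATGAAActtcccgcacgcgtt
Chac1: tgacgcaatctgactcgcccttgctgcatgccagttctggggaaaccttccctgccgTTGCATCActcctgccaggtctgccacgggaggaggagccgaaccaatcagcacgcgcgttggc
Trib3: agctcaggtTTACATCAgccgggcggggat
Hspa5: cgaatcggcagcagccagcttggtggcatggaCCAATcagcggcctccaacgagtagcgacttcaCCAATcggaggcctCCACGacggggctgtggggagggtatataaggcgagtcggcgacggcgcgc
Pdia4: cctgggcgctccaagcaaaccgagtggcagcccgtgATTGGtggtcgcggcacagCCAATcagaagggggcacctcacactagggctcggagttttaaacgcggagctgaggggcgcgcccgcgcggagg

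The C/EBP-ATF core was present in Asns at -23 to -16 from the start site, in Chac1 at -193 to -186 and in Trib3 at 15 to 22, within the first exon. Among all 32851 windows of the same length, 3.97% hold it. The ER stress element was present in Hspa5, at -65 to -47, and in 0.119% of all windows. No exact match was found in Pdia4, whose window holds 3 CCAAT boxes, as do the windows of Chac1 and Psat1. Hspa5 holds 4, 1 of them as part of the ER stress element. On the opposite strand of Pdia4, a CCAAT box is followed after 9 bases by CCACT, which differs from CCACG in the last letter. Such near matches were not searched for or counted over all windows. Over all windows, 37.4% hold at least 1 CCAAT box and 3.37% at least 3, and the search for single CCAAT boxes was added after the values were seen. TGACGTGG and TGACGTCA, sites of unfolded protein response and cAMP response factors, were not found in any of the 9 genes and are in 0.676% and 1.79% of all windows. A match is a description of letters and not evidence of binding.

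**Figure D1:**
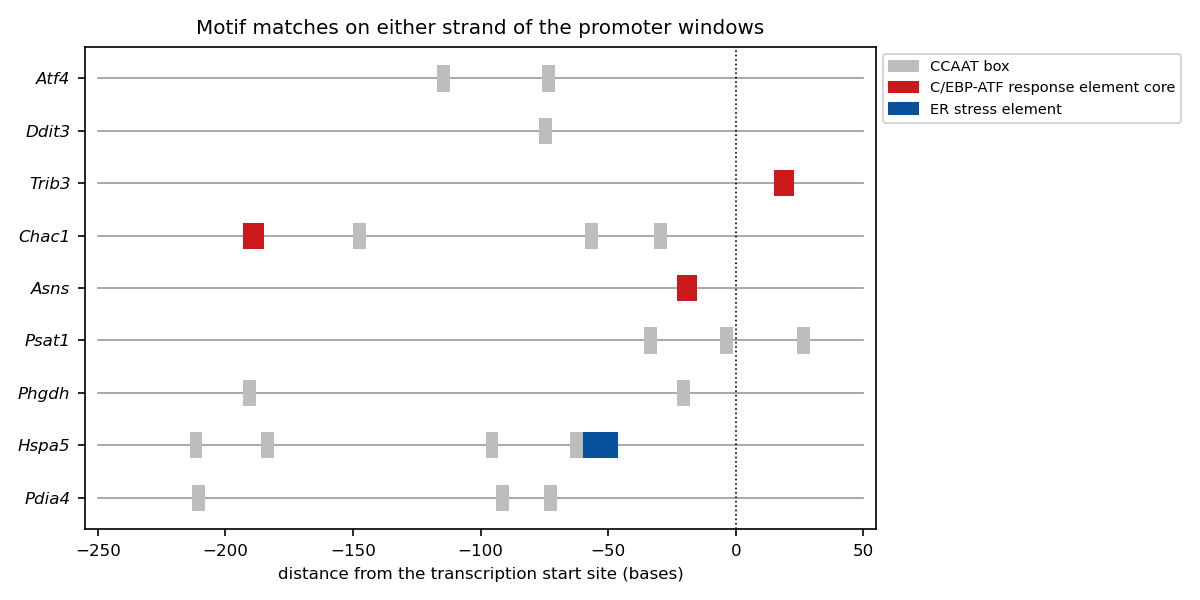
Positions of motif matches in the promoter windows of the 9 genes, with the distance from the transcription start site in bases on the x axis (dotted line, start site). The C/EBP-ATF core (red) is in Trib3, Chac1 and Asns, the ER stress element (blue) in Hspa5, and CCAAT boxes (grey) in 7 of the 9 genes (for Psat1, the first of its windows).

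Of the 9 genes, 7 reached at least 5 RPM in at least 2 libraries and were tested with limma on log2(RPM + 1), as part of 10856 such genes. Ddit3 and Chac1 were not. Differences below are on that log2 scale with their standard error (SE), which understates the change of low values, and a gene was called when its adjusted p was under 0.05. Group values are means ± SD of 2 libraries.

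**Figure D2:**
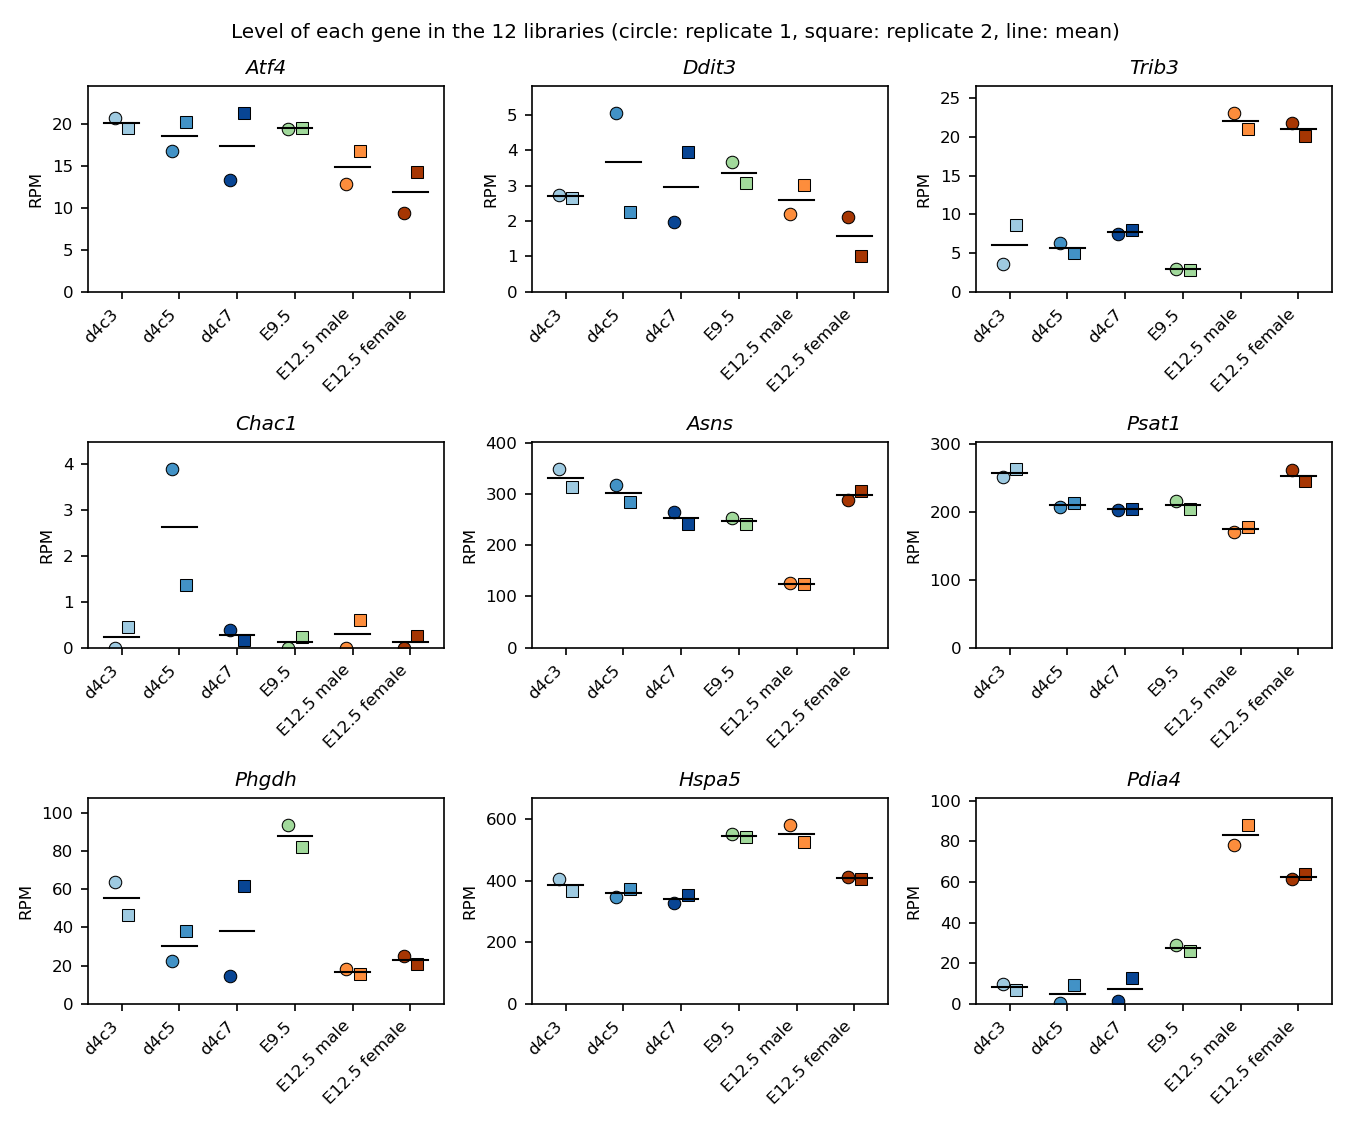
Level in RPM of each of the 9 genes (y axes, linear and starting at 0) in each library of the 6 groups (x axes), with replicate 1 as a circle, replicate 2 as a square and the mean as a line. Trib3 and Pdia4 are highest in the E12.5 groups, Asns is lowest in E12.5 males, and every culture library is below every embryonic library for Hspa5 and Pdia4. How many of all tested genes separate in this way was not counted.

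Atf4 (chromosome 15, 80255184 to 80257545) encodes the transcription factor at the centre of the amino acid response. Its level was 20.7 and 19.5 RPM in d4c3, 16.8 and 20.3 RPM in d4c5, and 13.4 and 21.4 RPM in d4c7. In the embryo it was 19.5 and 19.6 RPM at E9.5, 12.8 and 16.9 RPM in E12.5 males and 9.40 and 14.3 RPM in E12.5 females. Both E12.5 groups were below E9.5 in each library, and each group overlapped its neighbour in the order of means. Atf4 was not called in any of the 8 comparisons. Females differed from E9.5 by -0.70 ± 0.28 (adjusted p = 0.0649), and the adjusted p ranged from 0.0361 to 0.374 over the alternatives. ATF4 is controlled to a large extent at translation, which RNA levels do not measure.

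Ddit3 (chromosome 10, 127290793 to 127296291) encodes CHOP, a transcription factor of prolonged stress, and overlaps Mbd6 and Mars1, from which its reads may not be told apart. Its level was 2.74 and 2.66 RPM in d4c3, 5.07 and 2.26 RPM in d4c5, and 1.96 and 3.96 RPM in d4c7. At E9.5 it was 3.68 and 3.07 RPM, in males 2.19 and 3.01 RPM and in females 2.12 and 1.01 RPM. These values rest on 4 to 23 reads per library. Each E12.5 library was below both E9.5 libraries, the closest at 3.01 and 3.07 RPM, and no test was made.

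Chac1 (chromosome 2, 119351242 to 119354326) encodes an enzyme that degrades glutathione and is among the most strongly induced ATF4 targets in stressed cells. It was at 3.90 and 1.36 RPM in d4c5, which are 10 and 3 reads. The remaining 10 libraries held 0 to 2 reads each, or 0 to 0.602 RPM. The 2 d4c5 libraries were thus above the rest, with the lower of them at the floor of 3 reads, and no test was made.

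Trib3 encodes a pseudokinase induced by ATF4 and CHOP that dampens their activity (chromosome 2, 152337425 to 152344060). Its level at E9.5 was 2.94 and 2.83 RPM, in E12.5 males 23.1 and 21.1 RPM, and in E12.5 females 21.9 and 20.1 RPM. In culture it was 3.52 and 8.58 RPM in d4c3, 6.23 and 4.97 RPM in d4c5, and 7.46 and 7.93 RPM in d4c7. The E12.5 libraries thus stood above all others, the E9.5 libraries were lowest and the culture libraries lay between. From E9.5 it rose by 2.57 ± 0.34 in males (5.94-fold, adjusted p = 6.20e-05) and by 2.50 ± 0.34 in females (5.65-fold, adjusted p = 8.98e-05). Males and females differed by -0.07 ± 0.34 (female minus male, 95% interval -0.80 to 0.66). The 2 d4c3 libraries differed 2.44-fold, on 9 and about 19 reads.

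Among the comparisons within the embryo, 4 of the 7 tested genes were called in males against E9.5, where 37.7% of all tested genes were called, and 4 in females against E9.5, where 37.5% were. Both comparisons share the E9.5 libraries. In both, Trib3 rose and Phgdh fell. Psat1 fell in males and rose in females, Asns fell only in males by the test, and Hspa5 fell only in females by the test. Their direct comparison between the sexes follows.

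Asns (chromosome 6, 7675165 to 7693209) encodes asparagine synthetase, which makes asparagine from aspartate and glutamine. At E12.5 it was 125.7 and 123.7 RPM in males, against 289.5 and 306.3 RPM in females. At E9.5 it was 252.6 and 241.2 RPM. The male libraries were the lowest of all 12, and the female libraries were above E9.5. Females exceeded males by 1.25 ± 0.11 (2.38-fold, adjusted p = 5.48e-06), and the difference was 1.21 to 1.29 over all alternatives. Males were below E9.5 by -0.98 ± 0.11 (adjusted p = 1.14e-05), and females differed from E9.5 by 0.27 ± 0.11 (adjusted p = 0.0568).

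Psat1 (chromosome 19, 15905123 to 15925059) encodes phosphoserine aminotransferase, the middle enzyme of serine synthesis. It was 170.1 and 177.6 RPM in males, 260.7 and 244.4 RPM in females, against 215.1 and 203.3 RPM at E9.5. The 3 embryonic groups did not overlap, with females highest and males lowest. Females exceeded males by 0.54 ± 0.10 (1.45-fold, adjusted p = 0.00303). Against E9.5 the difference was -0.27 ± 0.10 in males (adjusted p = 0.0453) and 0.27 ± 0.10 in females (adjusted p = 0.0424). Neither call against E9.5 held when any 1 of the 4 libraries compared was left out, with adjusted p from 0.0911 to 0.203 in males and from 0.0804 to 0.205 in females.

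Phgdh (chromosome 3, 98313171 to 98339969) encodes phosphoglycerate dehydrogenase, the first enzyme of serine synthesis. Its level was 93.9 and 82.2 RPM at E9.5, 18.1 and 15.5 RPM in males, and 24.9 and 20.6 RPM in females. The E9.5 libraries were the highest of all 12. Phgdh fell by 2.32 ± 0.45 on the log2 scale in males (5.00-fold lower, adjusted p = 0.00113) and by 1.91 ± 0.45 in females (3.76-fold lower, adjusted p = 0.00441). The call in females held under 11 of 12 alternatives and was lost without E9.5 replicate 1, where the difference was -1.81. Females and males differed by 0.41 ± 0.45 (95% interval -0.55 to 1.37), which was not called, although both female libraries were above both male libraries. The SE pools the spread of all 6 groups, and the d4c7 replicates of this gene differed 4.21-fold. A sex difference like that of Asns and Psat1 was thus neither detected nor excluded. Its read estimates were not whole in several libraries, and how the authors counted reads that match several loci is not given in the sources used here.

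Hspa5 (chromosome 2, 34772090 to 34776529) encodes BiP, the main HSP70 chaperone of the ER and a sensor partner of the 3 unfolded protein response branches. It overlaps Rabepk, and the counting is not stated to use strand. Its level was 551.5 and 540.6 RPM at E9.5, 581.7 and 524.2 RPM in males, and 412.9 and 406.8 RPM in females. The 2 female libraries were below the other 4 embryonic libraries. Females were lower than males by -0.43 ± 0.10 (1.35-fold, adjusted p = 0.0105) and lower than E9.5 by -0.41 ± 0.10 (adjusted p = 0.00441). The call between the sexes was lost without male replicate 1 (adjusted p = 0.115), without female replicate 1 (0.0646) and without female replicate 2 (0.0788). Males and E9.5 differed by 0.02 ± 0.10 (95% interval -0.19 to 0.22).

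Pdia4 (chromosome 6, 47796141 to 47813512) encodes an ER protein disulfide isomerase, which forms and rearranges disulfide bonds in new proteins, and overlaps Mir704. In the embryo it was 28.7 and 25.9 RPM at E9.5, 78.5 and 88.2 RPM in males, and 61.2 and 63.9 RPM in females. The 3 groups did not overlap and each pair of libraries was within 1.12-fold. Even so, neither rise was called, with 1.57 ± 0.77 in males (adjusted p = 0.126) and 1.17 ± 0.77 in females (adjusted p = 0.254). The SE pools the spread of all 6 groups, and for this gene the culture replicates were far apart. With only the groups compared in the limma fit, the adjusted p was 7.44e-07 in males and 4.70e-05 in females. More of all 10856 tested genes were also called in these fits, 5338 in males and 5275 in females. The main fit called 4089 and 4069.

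Between the sexes at E12.5, 3 of the 7 tested genes were called, against 11.9% of all tested genes, with Asns and Psat1 higher and Hspa5 lower in females. Of 37 tested genes on a list of amino acid response and ATF4 target genes besides the 9, 0 were called higher and 8 lower in females (21.6% of the list). At an unadjusted limma p under 0.05 they were 2 and 14, where 26.0% of all tested genes had such a p. The list's median was -0.26 beside a median of -0.002 over all tested genes. Slc38a2, a transporter of neutral amino acids that rises when amino acids are scarce, was 96.9 ± 4.37 RPM in males and 36.7 ± 4.26 RPM in females (-1.38 ± 0.18, adjusted p = 0.000252). Shmt2, the mitochondrial enzyme that splits serine into glycine and a 1-carbon unit, was 66.3 ± 2.63 RPM in males and 29.0 ± 0.132 RPM in females (-1.16 ± 0.26, adjusted p = 0.0102). The tRNA synthetase genes Lars (-0.56 ± 0.10, adjusted p = 0.00215) and Tars (-0.56 ± 0.13, adjusted p = 0.0142) were also lower in females.

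Of 35 tested genes of ER folding and the unfolded protein response, 1 was called between the sexes (2.86% of the list). It was Xbp1, the transcription factor spliced by IRE1, at 42.7 ± 2.44 RPM in males and 19.7 ± 1.29 RPM in females (-1.08 ± 0.21, adjusted p = 0.00453). Of 20 sensors and regulators of both responses, 2 were lower in females and 0 higher (3 and 1 at an unadjusted limma p under 0.05). These 2 are 10% of the list, below the 11.9% of all tested genes, of which 26.0% had such an unadjusted p. Both encode subunits of eIF2B, the exchange factor that phosphorylated eIF2 inhibits, and the other 3 subunits were not called, with Eif2b1 at -0.18, Eif2b3 at -0.03 and Eif2b5 at 0.24. Eif2b2 was 68.6 ± 3.34 RPM in males and 29.7 ± 8.97 RPM in females (-1.21 ± 0.19, adjusted p = 0.000911), and Eif2b4 differed by -0.78 ± 0.18 (adjusted p = 0.0108).

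From E9.5 to E12.5, the same amino acid list held 8 genes called higher and 5 lower in males, and 5 higher and 11 lower in females, of 37 tested. These are 35.1% and 43.2% of the list, where 37.7% and 37.5% of all tested genes were called. Sesn2, an ATF4 and p53 target that restrains mTORC1, rose in males from 7.67 ± 1.49 to 34.5 ± 1.57 RPM (2.04 ± 0.42, adjusted p = 0.00188) and in females to 18.8 ± 2.09 RPM (1.20 ± 0.42, adjusted p = 0.0385). Slc1a5, a glutamine transporter, was 47.7 ± 2.74 RPM at E9.5 and fell in both sexes, to 15.9 ± 1.75 RPM in males and to 8.34 ± 2.79 RPM in females. Of the 35 ER genes, 10 were higher and 7 lower in males, and 6 higher and 8 lower in females, or 48.6% and 40% of the list. Derl3, an ER-associated degradation gene, was 5.59 ± 0.104 RPM at E9.5 and rose in both sexes, to 24.0 ± 5.22 RPM in males and to 24.3 ± 3.00 RPM in females, while Ssr3, of the translocon-associated complex, fell from 175.3 ± 4.60 RPM to 72.8 ± 5.84 RPM and 89.9 ± 18.3 RPM.

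**Figure D3:**
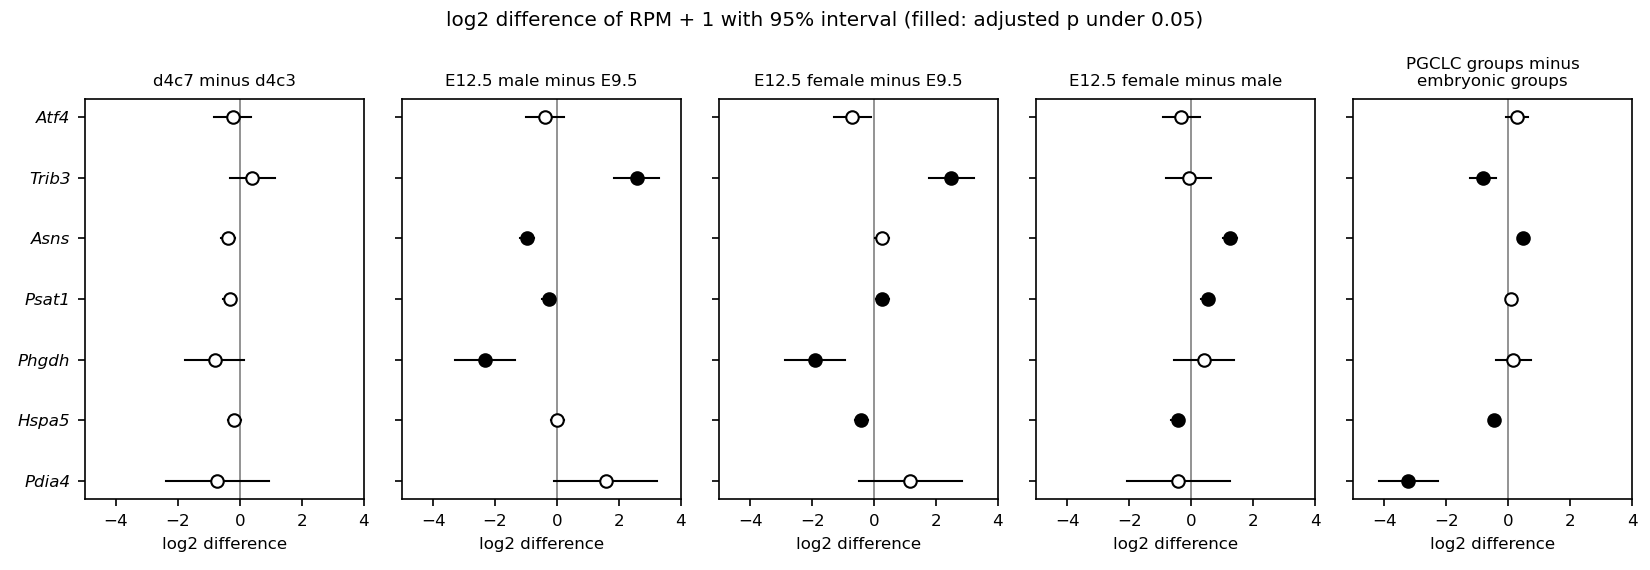
log2 difference of RPM + 1 with its 95% interval (x axes) for the 7 tested genes (y axis) in 5 comparisons, filled where the adjusted p was under 0.05. Trib3 lies near 2.5 in both sexes against E9.5, Asns and Psat1 lie above 0 and Hspa5 below 0 between the sexes, and in culture (left) none of the 7 is filled.

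Over expansion culture, from d4c3 to d4c7, none of the 7 tested genes was called by limma, where 2.75% of all tested genes were, and 2 had an unadjusted p under 0.05. These were Asns and Psat1. Asns was 349.7 and 314.9 RPM in d4c3, 318.7 and 285.5 RPM in d4c5, and 265.4 and 241.5 RPM in d4c7. The d4c7 libraries were below the libraries of both earlier days, which overlapped each other, and d4c7 differed from d4c3 by -0.39 ± 0.11 (1.31-fold lower, adjusted p = 0.0669). Psat1 was 250.3 and 263.0 RPM in d4c3, 206.5 and 212.3 RPM in d4c5, and 203.0 and 203.6 RPM in d4c7, a difference of -0.33 ± 0.10 (adjusted p = 0.0956). Both d4c3 libraries were above the 4 later ones. With the replicate number as a block in the culture libraries, Asns (adjusted p = 0.0127) and Psat1 (0.0393) were called, as were 647 of all tested genes.

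Trib3 differed between d4c7 and d4c3 by 0.40 ± 0.34 (95% interval -0.33 to 1.13) and Hspa5 by -0.18 ± 0.10 (95% interval -0.39 to 0.03). The 3 pathway lists held 0 genes called by limma in this comparison. At an unadjusted p under 0.05 there were 7 of 37 amino acid response genes, 4 of 35 ER genes and 2 of 20 sensors and regulators, where 1797 of all 10856 tested genes (16.6%) had such a p. Without replicate 1 of d4c5 and of d4c7, an alternative added after the values were seen, Asns differed by -0.46. This fit leaves a lone library in each of these groups, so its counts for the lists are not given. The 2 libraries left out were chosen because Pdia4 had 3 reads or fewer in them. The lone d4c7 library is assumed to vary like the other groups.

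Phgdh and Pdia4 had wide gaps between culture replicates. Phgdh was 63.9 and 46.6 RPM in d4c3, 22.6 and 38.4 RPM in d4c5, and 14.7 and 61.9 RPM in d4c7. The d4c7 pair differed 4.21-fold and spanned nearly the whole culture range. Its change from d4c3 was -0.82 ± 0.45 (adjusted p = 0.382), 0.18 without d4c7 replicate 1 and -1.82 without d4c7 replicate 2 (adjusted p = 0.00203). Pdia4 was 9.78 and 6.65 RPM in d4c3, 0.390 and 9.04 RPM in d4c5, and 1.18 and 12.8 RPM in d4c7. Replicate 1 was the low library in both later groups, on 1 read against 20 and 3 reads against 74. Gaps at least as large as that of Pdia4 occurred in 0.0829% of tested genes in d4c5 and 0.111% in d4c7.

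Pdia4 was 1 of 11 genes whose replicates differed by more than 2 on the log2 scale in both d4c5 and d4c7. The 11 were 34.4% of the 32 such genes in d4c5 and 19.0% of the 58 in d4c7, and in all 11 the same replicate was low in both groups. In 8, replicate 1 was low, among them Mov10 (8.57 and 43.4 RPM in d4c5, 7.85 and 57.9 RPM in d4c7) and Baz2a (25.3 and 112.5 RPM, then 28.3 and 149.4 RPM). In 3, replicate 1 was high, among them the collagen gene Col3a1 (39.7 and 0.904 RPM, then 9.42 and 1.55 RPM). These 3 were named after their values were seen. The 11 fibroblast and feeder markers summed to 331.8 and 467 RPM in d4c5 and to 208.1 and 503.9 RPM in d4c7, and in d4c5 only Postn and Thy1, in d4c7 only Lum, were at 0 in both. Replicate 2 of d4c7 was estimated at 5817990 reads in genes and replicate 1 at 2552984. All 92 spike-in rows were empty in d4c7 replicate 2, whereas spike-ins summed to 59.6 to 72.7 RPM in the other 5 culture libraries. The part of depth, spike-ins and these markers in the gaps was not tested.

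**Figure D4:**
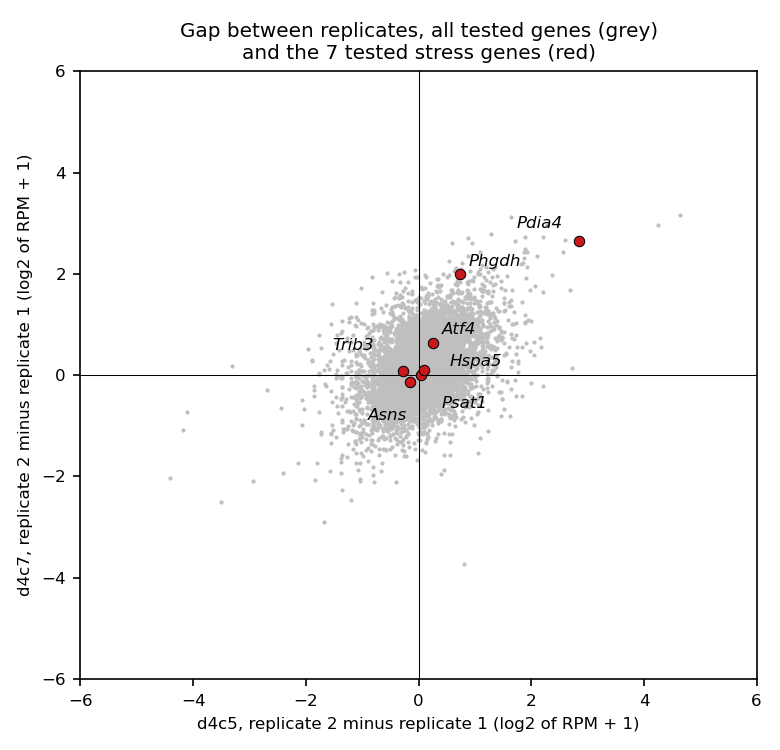
Difference between replicates, 2 minus 1, in d4c5 (x axis) and d4c7 (y axis) in log2 of RPM + 1, for all 10856 tested genes (grey) and the 7 tested stress genes (red). Pdia4 lies at 2.85 and 2.66, at the edge of the cloud, Phgdh reaches 2.00 in d4c7, and Asns, Psat1, Trib3 and Hspa5 lie near 0.

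Culture was then set against the embryo. Across all culture and all embryonic groups, 4 of the 7 tested genes were called, against 54.5% of all tested genes, so their number does not set them apart. Asns was higher in culture, and Trib3, Hspa5 and Pdia4 were lower. Hspa5 was 404.8 and 367.7 RPM in d4c3, 346.8 and 371.8 RPM in d4c5, and 328.3 and 354.2 RPM in d4c7. Each of these 6 libraries was below the lowest embryonic library, an E12.5 female at 406.8 RPM, but by little for d4c3 replicate 1. The difference was -0.46 ± 0.06 (1.38-fold lower, adjusted p = 1.26e-05). How many of all tested genes separate every culture library from every embryonic library was not counted.

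Pdia4 had the largest difference of the 7. Its culture libraries reached at most 12.8 RPM and its embryonic libraries were at least 25.9 RPM. The difference was -3.22 ± 0.45 (9.34-fold lower, adjusted p = 4.14e-05) and ranged from -2.31 to -3.70 over the alternatives, with the smallest value without replicate 1 of d4c5 and d4c7. Asns was higher in culture by 0.49 ± 0.06 (1.4-fold, adjusted p = 1.61e-05), although E9.5 and E12.5 females overlapped the culture range of 241.5 to 349.7 RPM. Trib3 was lower by -0.80 ± 0.20 (adjusted p = 0.00346) as a mean of groups, yet every culture library was above both E9.5 libraries. With E9.5 left out of the embryonic groups, its difference was -1.64. Atf4 (0.47, adjusted p = 0.0412) and Phgdh (0.88, adjusted p = 0.0185) were then also called, as higher in culture. So were 6218 of all 10856 tested genes in either direction, against 5913 with E9.5 kept.

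The earliest culture group, d4c3, differed from E9.5 in 3 of the 7 genes, where 23.7% of all tested genes were called. The labels do not match culture days to embryonic stages. Asns (0.43 ± 0.11, adjusted p = 0.00902) and Psat1 (0.29 ± 0.10, adjusted p = 0.0424) were higher in d4c3, and Hspa5 was lower (-0.50 ± 0.10, adjusted p = 0.00202). The call of Asns was lost without d4c3 replicate 1 (adjusted p = 0.0880) and without E9.5 replicate 2 (0.0792), and that of Psat1 without any 1 of the 4 libraries (0.0907 to 0.207). Trib3, at 0.76 ± 0.34 (adjusted p = 0.122), was called without d4c3 replicate 1 (1.3, adjusted p = 0.0215). Pdia4 was -1.64 ± 0.77 (adjusted p = 0.145), although its d4c3 and E9.5 libraries did not overlap. It was called with the block in the culture libraries (adjusted p = 0.0184), as were 3308 of all tested genes.

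Between d4c7 and the mean of both E12.5 groups, 4 of the 7 were called, where 43.4% of all tested genes were. Pdia4 (-3.74 ± 0.67, adjusted p = 0.000591), Trib3 (-1.37 ± 0.29, adjusted p = 0.00205) and Hspa5 (-0.48 ± 0.08, adjusted p = 0.000495) were lower in d4c7. For Pdia4 the difference was -2.41 without d4c7 replicate 1 and -5.07 without d4c7 replicate 2. Asns was higher by 0.39 ± 0.09 (adjusted p = 0.00345) than this mean of a low male and a high female value, and its d4c7 libraries lay between the sexes. Phgdh (0.62 ± 0.39, adjusted p = 0.214) was called without d4c7 replicate 1 (1.62, adjusted p = 0.000248) and was -0.38 without replicate 2.

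Changes over time were compared between culture (d4c3 to d4c7) and embryo (E9.5 to the mean of the E12.5 groups). Each gene was tested for a difference of these changes. The intervals differ in length, and the labels do not match their stages. Only Trib3 was called among the 7, where 17.5% of all tested genes were. Its change in culture was smaller than in the embryo by -2.13 ± 0.45 (adjusted p = 0.00554). Phgdh, at 1.3 ± 0.59 (adjusted p = 0.147), was called without d4c7 replicate 1 (2.30, adjusted p = 0.000473), and Pdia4, at -2.10 ± 1.02 (adjusted p = 0.173), without d4c7 replicate 2 (-3.43, adjusted p = 0.00825). With the block in the culture libraries, Phgdh (adjusted p = 0.0414), Pdia4 (0.0265) and Psat1 (0.0497) were called beside Trib3, as were 2850 of all tested genes.

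Of 35 tested ER genes besides Hspa5 and Pdia4, 15 were lower and 6 higher in culture. The 21 are 60% of the list, where 54.5% of all tested genes were called, with a median of -0.20 beside -0.006 over all tested genes. Hyou1, an ER chaperone of the HSP110 family, was 28.1 ± 3.13 to 32.2 ± 0.217 RPM in the culture groups and 51.6 ± 2.77 to 109.6 ± 2.08 RPM in the embryonic groups (-1.37 ± 0.13, adjusted p = 1.30e-06). Syvn1, the ubiquitin ligase of ER-associated degradation (-1.06 ± 0.16, adjusted p = 9.46e-05), and Calr, a calcium-binding lectin chaperone (-0.78 ± 0.15, adjusted p = 0.000624), were also lower. Ssr3 was higher (1.00 ± 0.09, adjusted p = 1.25e-06). Hsp90b1, the HSP90 of the ER, was 530.9 ± 39.4 RPM in d4c3 and 866.9 ± 36.9 RPM at E9.5 (-0.71 ± 0.09, adjusted p = 6.67e-05). Between d4c7 and the E12.5 groups it differed by -0.08 ± 0.08 (adjusted p = 0.420). The fit without replicate 1 of d4c5 and d4c7 leaves a lone library in each, so its ER gene counts are not set beside these.

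Of the 37 amino acid response genes, 12 were higher and 8 lower in culture (54.1% of the list, where 54.5% of all tested genes were called, and median 0.03). Slc7a3, a transporter of cationic amino acids, was 32.8 ± 3.08 to 37.8 ± 6.35 RPM in the culture groups and 1.92 ± 0.136 to 16.9 ± 2.52 RPM in the embryonic groups (2.12 ± 0.14, adjusted p = 5.55e-08). Cth, which makes cysteine from cystathionine, was higher by 1.77 ± 0.24 (adjusted p = 3.80e-05). Shmt2 (-0.74 ± 0.15, adjusted p = 0.000904) and Aldh18a1, of proline synthesis (-0.70 ± 0.16, adjusted p = 0.00204), were lower. The list's inducible regulators and targets Atf3, Cebpb, Nupr1, Gdf15, Fgf21, Stc2 and Vldlr were among 11 genes too low to test. As for the ER genes, counts without replicate 1 of d4c5 and d4c7 rest on a lone library in each and are not compared.

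Of the 20 sensors and regulators, 7 were higher and 4 lower in culture (55% of the list, near the 54.5% of all tested genes, and median 0.12). Impact, an imprinted inhibitor of the amino acid sensor GCN2, was 21.7 ± 3.66 to 24.9 ± 3.91 RPM in culture and 8.46 ± 2.18 to 11.5 ± 0.906 RPM in the embryo (1.12 ± 0.17, adjusted p = 9.22e-05). Gcn1l1, which GCN2 needs for its activation, was lower (-0.90 ± 0.22, adjusted p = 0.00351). Eif2ak4, which encodes GCN2 itself, was higher in d4c7 than in the E12.5 groups by 0.88 ± 0.21 (adjusted p = 0.00466). Nfe2l2, the transcription factor NRF2, was higher in culture by 0.85 ± 0.14 (adjusted p = 0.000210).

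**Figure D5:**
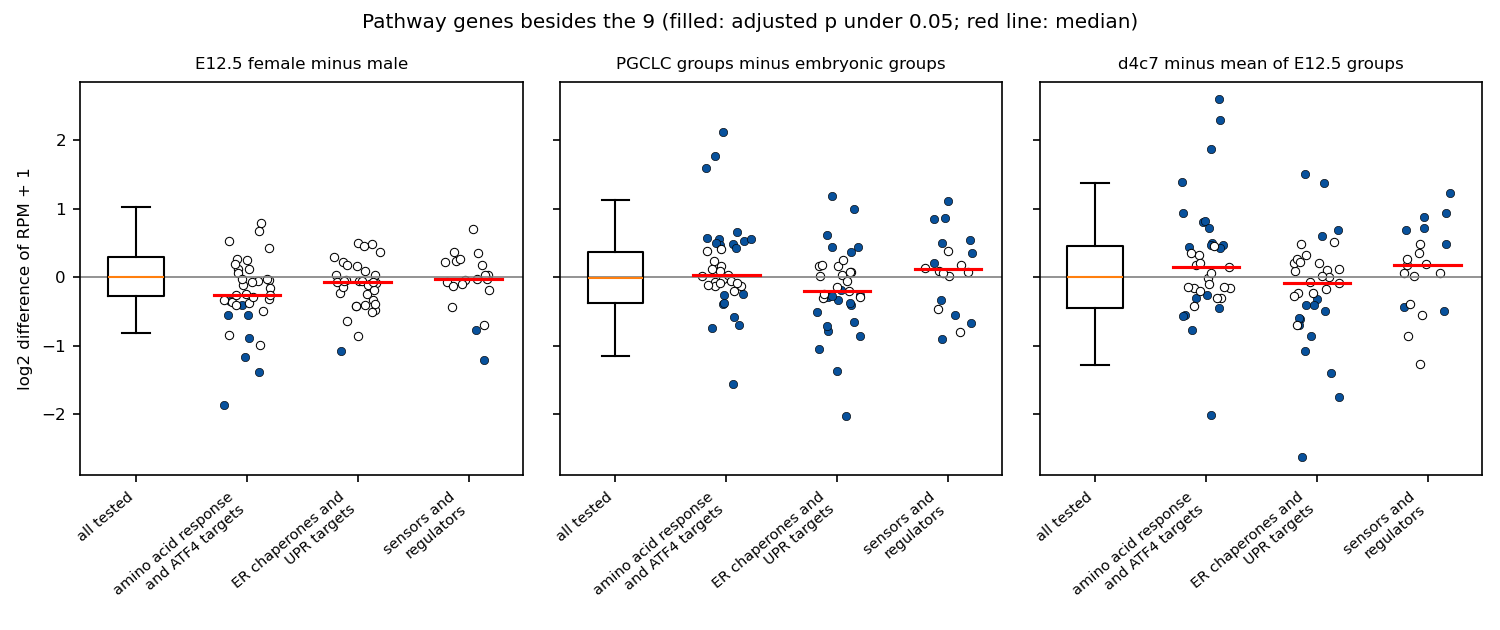
log2 difference of RPM + 1 (y axes) in 3 comparisons for genes of the 3 pathway lists (points, filled where the adjusted p was under 0.05, with a red line at the median) beside all tested genes (box, quartiles with whiskers from the 5th to the 95th percentile). Filled amino acid response points lie below 0 between the sexes (8 of 8), and 15 of 21 filled ER points lie below 0 between culture and embryo.

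Across the 12 libraries, which differ in depth and fall into culture and embryo with their strain, sort and RNA input, Asns was most like Psat1 among the members (Pearson r = 0.82 on log2 values) and Hspa5 most like Pdia4 (r = 0.74), while Trib3 ran against Phgdh (r = -0.77) and Atf4 (r = -0.72). Among all tested genes, those most like Asns were Aif1l (r = 0.95), Arpc1b (0.94), Csrnp1 (0.94), Ebp (0.93) and Sh3tc1 (0.93). Those most like Hspa5 were Apba3 (0.95), Traip (0.95), Morn2 (0.95), Fam162a (0.94) and Dedd2 (0.94). These are descriptions over 12 libraries in 6 groups.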

How the data were processed

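RNA of 12 mouse germ cell libraries was measured by 3′-end sequencing. The deposited values are RPM, which the authors scaled to the reads in genes. Cutadapt 1.3, TopHat 1.4.1, Cufflinks 2.2.0 and build mm10 are named per the submitters' processing notes, with no role given. Low values were mostly multiples of a step taken as 1 read, but only 81.7% to 87.3% of values up to 20 reads were whole within 0.1 read, so count tests were not used.

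Genes with at least 5 RPM in at least 2 libraries were tested with limma 3.58.1 in R 4.3.3 on log2(RPM + 1), with a mean per group, all 12 libraries, a mean-variance trend and Benjamini-Hochberg adjustment over all 10856 genes per comparison. The procedure was run on simulated data with independent noise, equal in all groups. Such data cannot show how it handles the shared deviations of libraries given next. Replicate numbers name no shared day or animal in the labels, and deviations of same-numbered libraries correlated at -0.04 to 0.46 over 15 pairs of groups. The 3 pairs of culture groups were the only ones over 0.1 (0.12, 0.13 and 0.46). The numbers were not used as pairs, and a block in the culture libraries alone was added as an alternative. Motifs were searched on both strands with Python 3.11.15.

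The 9 genes, the gene lists and the tests were chosen with earlier results of these data known. Named besides the 9 are up to 4 called genes per list and comparison with the largest change and a higher group mean of at least 20 RPM, and the 5 genes most like Asns and Hspa5. Some that the rule names are not described. Alternatives were other pseudocounts (0.5, 5), filters (none, 10 RPM), median scaling, no trend, a replicate block, fewer groups in the fit, each library left out, E9.5 left out and, added after seeing the data, replicate 1 of d4c5 and d4c7 left out. The fit on fewer groups was not made for all culture against all embryonic groups, which uses every group.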

Additional observations from a re-analysis of the deposited data

Results flagged for a closer look

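Asns was higher in E12.5 females than in males by 1.25 ± 0.11 on the log2 scale (SE), and the test of this difference between the sexes passed the threshold (limma, adjusted p = 5.48e-06). Psat1 also differed between the sexes, by 0.54 ± 0.10 (adjusted p = 0.00303). Hspa5 differed the other way, by -0.43 ± 0.10 (adjusted p = 0.0105). In each case both libraries of 1 sex lay on the same side of both libraries of the other. These genes were picked by the test on the same libraries, so this adds no support. Such a separation also held for Phgdh and Pdia4, which were not called, and for Ddit3, which was not tested. How many of all tested genes separate the sexes in this way was not counted. For Trib3, the change over time differed between culture and embryo by -2.13 ± 0.45 (adjusted p = 0.00554), with a large rise in the embryo and a difference within the replicate spread in culture.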

How the results depend on the processing

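Of 23 calls of a member in a comparison, 17 held under every alternative. Of 343 alternative values for the 23 calls, 318 kept the call, 25 lost it and 0 changed direction. Those lost were calls of Psat1, Asns, Hspa5 and Phgdh, with a library left out as given in the text, or with no trend or median scaling. Where members changed sign, the difference had not been called. With median scaling, Hspa5 in males against E9.5 became -0.039 and the difference of changes of Asns 0.007. Leaving out 1 library moved d4c7 minus d4c3 between -0.140 and 0.943 for Trib3, -0.557 and 0.083 for Atf4, -1.822 and 0.179 for Phgdh, and -2.060 and 0.599 for Pdia4. Without replicate 1 of d4c5 and d4c7 together, it was 0.083 for Atf4, 0.179 for Phgdh and 0.599 for Pdia4. Ranges that crossed 0 in the same way were -0.001 to 0.082 for Atf4 in d4c3 against E9.5, -0.059 to 0.091 for Hspa5 in males against E9.5, and for Phgdh -0.382 to 1.618 (d4c7 against E12.5) and -0.162 to 0.505 (culture against embryo). For the difference of changes they were -0.110 to 0.041 for Asns, -0.049 to 0.090 for Hspa5 and -0.013 to 0.627 for Atf4.

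Genes called between d4c7 and d4c3 numbered 298, but 103 with no filter, 184 with no trend, 513 without replicate 1 of d4c5 and d4c7, and 0 with only those groups in the limma fit (1084 at an unadjusted p under 0.05). Leaving out 1 library gave 31 (without d4c3 replicate 1) to 786 (without d4c7 replicate 2). With 1 library left out, counts were 1321 to 1685 for d4c3 against E9.5, 908 to 2447 for the difference of changes, 2509 to 2842 for males and 2456 to 2782 for females against E9.5, and 538 to 567 between the sexes. Members called in d4c3 against E9.5 were 1 with no trend, where 2140 of all 10856 tested genes were called. With only those groups they were 5, where 3372 of all tested genes were called. In females against E9.5 they were 7 with only those groups, where 5275 of all tested genes were called. For d4c7 against d4c3 they were 0 to 1 with 1 library left out (1 without d4c7 replicate 2) and 1 without replicate 1 of d4c5 and d4c7. For the difference of changes they were 1 to 2 (2 without either d4c7 library) and 2. The cause was not tested.

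With the replicate block, 358 genes were called between d4c7 and d4c3 and 1417 between the sexes, and Atf4 (adjusted p = 0.0426) and Asns (0.0470) were called in females against E9.5. It changed no other call of a member. With the replicate block in the culture libraries only, an alternative added after seeing the data, 647 genes and 2 members (Asns, adjusted p = 0.0127, and Psat1, 0.0393) were called between d4c7 and d4c3. Members called were then 4 for the difference of changes, where 2850 of all 10856 tested genes were called. These were Psat1 (0.0497), Phgdh (0.0414) and Pdia4 (0.0265) beside Trib3. For d4c3 against E9.5 they were 4, with Pdia4 (0.0184) added, where 3308 of all tested genes were called. The labels do not say that culture libraries of the same number share a day, and no call was lost. Ddit3 and Chac1 rest on few reads.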
